A study of Mus musculus with 2 samples.

Results

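Plekha6, Atp8a2 and Rimbp2 are 3 of the 32285 genes measured in nuclei of gastrulating mouse embryos, and each is listed in the deposited gene table with widely spread starts. They were taken up here because their RNA was higher in one cell class than in epiblast while accessible chromatin at the listed starts was lower. The values that chose them are the RNA ratio and the accessibility ratio at the listed starts, for visceral endoderm over epiblast in Plekha6 and Atp8a2 and for embryonic mesoderm over epiblast in Rimbp2, so these are given as a description. Each gene was read with every accessibility peak from 50000 bp below its lowest to 50000 bp above its highest listed start. That gave 110 of the 229480 peaks, of which 44 belonged to Plekha6, 23 to Atp8a2 and 43 to Rimbp2.

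Plekha6 encodes a protein with a pleckstrin homology domain, a fold that in many proteins binds membrane phosphoinositides, and related PLEKHA proteins sit at epithelial cell junctions. Atp8a2 encodes a P4-ATPase, a flippase that moves phosphatidylserine to the cytoplasmic leaflet of membranes and is best known in neurons and photoreceptors. Rimbp2 encodes RIM-binding protein 2, a scaffold that ties calcium channels to the transmitter release machinery of the presynaptic active zone. A gene can be transcribed from several starts, and an open start usually appears as a peak of accessible chromatin, as do many enhancers.

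The study profiled pooled mouse embryos at embryonic day 7.0, dissociated with TrypLE, as single nuclei whose RNA and accessible chromatin were read from the same droplet (10x Genomics multiome). Both groups were at E7.0, a nuclear RNA library and a chromatin accessibility library, 1 of each, with no barcode traceable to an embryo. No value therefore has a replicate check, no test was run, and all 95% intervals cover counting error only. The labels conflict, since the title, age and protocol give E7.0 embryos while other fields give small intestine or distal colon, goblet cells and the strain RedMUC298trTg. In the 12796 nuclei kept, Muc2, which encodes the main goblet cell mucin, had 17 UMIs (unique molecular identifiers, the count of RNA molecules) and Tff3 had 6. A list of 13 visceral endoderm genes summed to 5675 UMIs per 1000000 (CPM) and 10 epiblast genes to 1998, against 31.1 for 8 goblet and intestinal genes, of which Vil1 alone gave 27.4. The libraries held 182201512 UMIs and 273131304 peak counts, with medians of 10471 UMIs and 17350 peak counts per kept nucleus.

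Nuclei were clustered on RNA with the 3 genes left out, and clusters were named from marker genes, so a name such as epiblast-like means a marker profile. Epiblast, from which the body of the embryo forms, was represented by 3739 nuclei in 4 clusters. These had 7 to 9 of the 10 epiblast markers raised, at mean log2 ratios of 0.76 to 1.02. Plpp4 and Sphkap led a cluster of 1237 of these nuclei. At resolution 2 a cluster of 629 nuclei led by the same genes was unnamed, for a rival primitive streak list. Visceral endoderm, the absorptive layer around the embryo, was represented by 1698 nuclei in 3 clusters that each had all 13 of its markers raised. Embryonic mesoderm-like nuclei numbered 1475 in 1 cluster with 10 raised markers, and parietal endoderm-like nuclei, of the layer that lines the yolk cavity, numbered 132. At resolution 0.5 or 2 only 32 of these nuclei kept that name. The other 100 joined the visceral endoderm-like class at 0.5 and were unnamed at 2, in a cluster with a mean log2 ratio of 1.52 for the parietal and 1.09 for the visceral endoderm markers, so the main values of this class are also given for the 32 and the 100. The remaining named classes were extraembryonic ectoderm-like (1324 nuclei), primitive streak-like (854), anterior streak, node and definitive endoderm-like (652), haemato-endothelial progenitor-like (624) and ectoplacental cone and giant cell-like (239). Of the 624, only 237 kept their name at resolution 2, where 383 joined an extraembryonic mesoderm-like cluster led by Unc5c, Fendrr and Foxf1. A further 2059 nuclei in 5 clusters stayed unnamed.

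Coordinates are those of the deposited files on mm10. Distances in kb follow the coordinates on either strand, and a negative distance lies below the start named. The annotation is RefSeq on GRCm38.p6, the assembly behind mm10. Plekha6 (ENSMUSG00000041757) is on the plus strand of chromosome 1, with listed starts from 133181321 to 133259009, a span of 77688 bp inside the RefSeq gene at chr1:133162032-133303435. The lower end of that RefSeq gene, its 5′ end on this strand, lies below the lowest listed start. The RefSeq promoter entry of Plekha6 starts at 133246097, between the listed starts, and is the RefSeq start named below. Rimbp2 (ENSMUSG00000029420) is on the minus strand of chromosome 5, with listed starts from 128820022 to 128953486, a span of 133464 bp. Its RefSeq entry starts at the highest listed position, and the RefSeq gene lies at chr5:128757788-128953644. Atp8a2 (ENSMUSG00000021983) has listed starts from 60086834 to 60197179 on chromosome 14, a span of 110345 bp, and was placed on the minus strand because the upper end of its RefSeq gene (chr14:59647531-60086914) is the end near a listed start. Only the lowest listed start of Atp8a2 lay inside that RefSeq gene, and the highest lay inside LOC108168164 (chr14:60186158-60197210, minus strand), a long non-coding RNA gene. The lowest listed start of Rimbp2 lay inside another, Gm34057 (chr5:128818131-128825511), and RNA of neither was analysed here.

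RefSeq promoter entries overlapped 5 of the 110 peaks, and their 300 bases are shown because they are the starts at which the accessibility values below can be read against sequence. Plekha6 (chr1:133245847-133246146, plus strand) and Rimbp2 (chr5:128953437-128953736, minus strand) were 2 of the 3 genes matched in the table. The others belong to long non-coding RNAs that share a peak with the windows, namely Gm51648 (chr1:133214138-133214437, minus strand), Gm33582 (chr14:60176701-60177000, plus strand) and 4930563I02Rik (chr14:60087256-60087555, plus strand). All are written 5′ to 3′ on the strand of the gene, and capitals mark the only match found to the motifs searched.
Plekha6: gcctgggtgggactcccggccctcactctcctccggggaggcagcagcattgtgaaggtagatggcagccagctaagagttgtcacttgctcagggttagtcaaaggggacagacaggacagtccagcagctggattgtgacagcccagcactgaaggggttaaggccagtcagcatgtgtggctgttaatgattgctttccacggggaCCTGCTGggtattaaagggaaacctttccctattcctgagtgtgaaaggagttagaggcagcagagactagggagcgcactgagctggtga
Gm51648: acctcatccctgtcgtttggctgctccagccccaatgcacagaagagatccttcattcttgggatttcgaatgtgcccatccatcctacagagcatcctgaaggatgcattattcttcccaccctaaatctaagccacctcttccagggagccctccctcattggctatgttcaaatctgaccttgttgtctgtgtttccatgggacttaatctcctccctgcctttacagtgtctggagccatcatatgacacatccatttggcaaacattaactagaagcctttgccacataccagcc
4930563I02Rik: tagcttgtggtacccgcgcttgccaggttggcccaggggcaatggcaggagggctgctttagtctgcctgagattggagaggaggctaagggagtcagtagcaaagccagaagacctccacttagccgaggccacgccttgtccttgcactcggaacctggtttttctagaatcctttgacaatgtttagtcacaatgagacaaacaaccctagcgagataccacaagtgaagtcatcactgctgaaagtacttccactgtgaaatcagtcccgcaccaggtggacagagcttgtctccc
Gm33582: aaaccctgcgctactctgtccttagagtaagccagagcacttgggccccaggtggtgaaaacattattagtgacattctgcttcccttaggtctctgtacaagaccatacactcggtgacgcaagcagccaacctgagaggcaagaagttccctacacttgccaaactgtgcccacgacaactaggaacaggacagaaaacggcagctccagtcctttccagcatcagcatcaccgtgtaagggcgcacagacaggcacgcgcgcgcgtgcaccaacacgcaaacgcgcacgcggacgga
Rimbp2: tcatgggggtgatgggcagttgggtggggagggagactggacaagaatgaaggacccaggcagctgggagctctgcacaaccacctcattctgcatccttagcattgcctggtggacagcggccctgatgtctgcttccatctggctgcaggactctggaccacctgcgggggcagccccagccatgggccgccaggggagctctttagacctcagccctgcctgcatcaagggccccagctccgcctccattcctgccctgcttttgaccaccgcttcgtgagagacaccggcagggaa

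Exact letters of 9 motifs were searched on both strands of these promoters and of all 32851 in the table. They were the motif of GATA factors (letters AGATAA, in 11.2% of all promoters), HNF4 (CAAAGTCCA, 0.475%), HNF1 (0.00913%), FOXA (TGTTTAC, 3.65%), octamer (ATGCAAAT, 1.74%), T-box (AGGTGTGA, 1.28%), TEAD (ACATTCC, 3.85%), ZIC (CAGCAGG, 10.5%) and the TATA box (letters TATAAA, 13.6%). The Plekha6 promoter held the ZIC letters on its minus strand at bases 210 to 216, and the other 4 sequences held none of these letter strings. The Plekha6 promoter had 4 CpG dinucleotides and the Gm51648 promoter had 2, against a median of 7 over all promoters. Those of Rimbp2 and 4930563I02Rik had 7 each, and the Gm33582 promoter had 18.

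Plekha6 RNA was highest in visceral endoderm-like nuclei, at 191.9 CPM (186.3 to 197.7; 4410 UMIs), against 9.69 CPM in epiblast-like nuclei (8.77 to 10.7; 407 UMIs). The next levels were 57.8 CPM in parietal endoderm-like nuclei (46.9 to 70.4), 43.5 in embryonic mesoderm-like nuclei (40.4 to 46.8) and 32.6 in haemato-endothelial progenitor-like nuclei (28.4 to 37.2). The intervals of neighbours in this order did not overlap, but the parietal level was 15.3 CPM in the 32 nuclei (5.61 to 33.3; 6 UMIs) and 70.6 in the 100 (56.9 to 86.5). The haemato-endothelial level was likewise 13.9 CPM in the 237 nuclei that kept that name (9.66 to 19.3) and 43.99 in the 383 (37.8 to 50.9). Below them came 22.8 CPM in the anterior streak, node and definitive endoderm-like class and 22.4 in nuclei like ectoplacental cone and giant cells, which counting error did not separate, then 12.4 in primitive streak-like nuclei. Extraembryonic ectoderm-like nuclei had the lowest level, 3.64 CPM (2.82 to 4.63). A Plekha6 UMI was found in 80.2% of visceral endoderm-like nuclei, 32.1% of embryonic mesoderm-like, 9.20% of epiblast-like and 3.85% of extraembryonic ectoderm-like nuclei, where the median nucleus held 12353, 10549, 10473 and 12654 UMIs. Thinned to 5000 UMIs per nucleus, which left out shallower nuclei and kept 1618 of 1698, 1380 of 1475, 3545 of 3739 and 1246 of 1324, the shares were 59.0%, 17.8%, 4.18% and 1.69%. The extraembryonic ectoderm share was the lowest of these, in the deepest of these classes, on 67 UMIs in 51 nuclei. Whether those UMIs were background was not tested.

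Atp8a2 RNA was high in visceral endoderm-like nuclei, at 165.5 CPM (160.3 to 170.8; 3802 UMIs). The 132 parietal endoderm-like nuclei had 173.9 CPM (154.6 to 194.9; 295 UMIs), but this came mostly from the 100, at 213.2 (188.9 to 239.8; 278 UMIs), while the 32 that kept the name had 43.3 (25.2 to 69.4; 17 UMIs). A high level in parietal endoderm thus depended on how the nuclei were grouped. Epiblast-like nuclei came next at 18.9 CPM (17.7 to 20.3; 796 UMIs), followed by the anterior streak, node and definitive endoderm-like class at 14.1 and primitive streak-like nuclei at 8.46. The remaining 4 classes lay between 3.16 and 4.66 CPM with overlapping intervals. Embryonic mesoderm-like nuclei were among them at 4.23 CPM (3.29 to 5.35), so that epiblast-like nuclei had 4.48-fold more Atp8a2 RNA (3.50 to 5.82), whereas Plekha6 RNA was 4.49-fold higher in embryonic mesoderm-like nuclei (3.97 to 5.09). An Atp8a2 UMI was found in 71.3% of visceral endoderm-like, 16.4% of epiblast-like and 4.14% of embryonic mesoderm-like nuclei, and after thinning in 49.9%, 8.80% and 2.39%.

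Rimbp2 RNA was highest in embryonic mesoderm-like nuclei, at 107.2 CPM (102.2 to 112.3; 1749 UMIs). Primitive streak-like nuclei had 23.9 CPM (20.9 to 27.2) and the anterior streak, node and definitive endoderm-like class 21.7 (18.4 to 25.3), which did not differ beyond counting error. Epiblast-like nuclei had 5.57 CPM (4.88 to 6.33; 234 UMIs), with haemato-endothelial progenitor-like nuclei at 4.21 (1.59 in the 237 and 5.83 in the 383) and extraembryonic ectoderm-like nuclei at 2.61. Rimbp2 was near 0 in visceral endoderm-like nuclei, at 14 UMIs or 0.609 CPM (0.333 to 1.02). It was also near 0 in ectoplacental cone and giant cell-like nuclei, at 2 UMIs or 0.582 CPM (0.0705 to 2.10). In parietal endoderm-like nuclei it had 0 UMIs, which allows up to 1.77 CPM by the limit of 3 counts. A Rimbp2 UMI was found in 56.0% of embryonic mesoderm-like, 5.35% of epiblast-like and 0.825% of visceral endoderm-like nuclei, and after thinning in 37.1%, 2.29% and 0.185%.

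**Figure D1:**
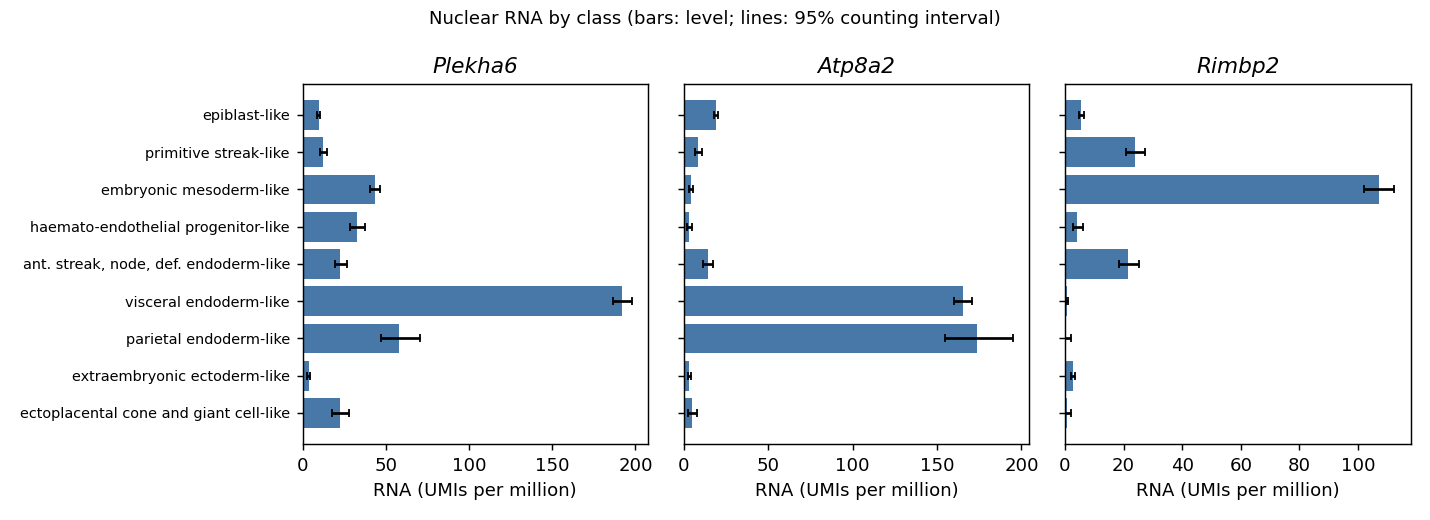
RNA level of Plekha6, Atp8a2 and Rimbp2 (CPM, linear axis) in each of the 9 named classes, with exact 95% intervals that cover counting error only. Plekha6 peaks in visceral endoderm-like nuclei at 191.9, Atp8a2 is highest in visceral endoderm-like nuclei (165.5) and in the parietal endoderm-like cluster of 132 nuclei (173.9, but 43.3 in the 32 of them that kept the name), and Rimbp2 in embryonic mesoderm-like nuclei at 107.2.

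The RNA differences that chose the genes were 19.8-fold for Plekha6 (17.9 to 21.99) and 8.74-fold for Atp8a2 (8.09 to 9.44) in visceral endoderm-like over epiblast-like nuclei. Rimbp2 was 19.2-fold higher in embryonic mesoderm-like over epiblast-like nuclei (16.8 to 22.2). Of all genes with at least 50 UMIs over both classes, 15.5% were at least 2-fold higher in visceral endoderm-like nuclei, and 6.94% in embryonic mesoderm-like nuclei. Plekha6 ranked 171 and Atp8a2 ranked 517 by fold among 15535 genes, and Rimbp2 ranked 65 among 15311. When the classes were taken from clusters of accessibility, built without the 110 peaks, visceral endoderm-like nuclei had 181.9 CPM of Plekha6 and 168.5 of Atp8a2, and embryonic mesoderm-like nuclei 106.7 of Rimbp2. Parietal endoderm-like nuclei of those clusters numbered 393 rather than 132 and had 142.9 CPM of Plekha6 and 149.1 of Atp8a2. This cluster had a median of 4042 peak counts, against 15400 to 20366 in the other named classes, and a mean log2 ratio of 1.27 for visceral beside 1.73 for parietal endoderm markers. The level thus depended on which assay drew the class. Rimbp2 had 38 UMIs there, 6.57 CPM (4.65 to 9.02), in place of 0 UMIs, beside 5.64 in epiblast-like nuclei of those clusters. The anterior streak, node and definitive endoderm-like class, with 1423 rather than 652 nuclei, moved as well, because it took in a cluster of 454 nuclei led by Gckr, Foxq1 and Sfrp5, genes that also lead an RNA cluster left unnamed for a rival visceral endoderm list. That cluster had 60.6 CPM of Plekha6 and 66.2 of Atp8a2, and the other (969 nuclei) had 12.8 of Atp8a2 and, for Plekha6, an interval of 17.4 to 22.9. Jointly the class had 34.04 CPM of Atp8a2 (31.3 to 36.9) rather than 14.1, and 36.1 of Plekha6 rather than 22.8. For Rimbp2 it had 13.6 CPM (11.9 to 15.5), above primitive streak-like nuclei at 8.66 (7.08 to 10.5), which had 23.9 in the RNA-defined class. Haemato-endothelial progenitor-like nuclei had 6.97 CPM of Rimbp2 rather than 4.21. The order of these middle levels thus depended on how the nuclei were grouped.

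Within the endoderm, levels varied between clusters. Of the 3 visceral endoderm-like clusters, one led by Bmp6, Abcc2 and A1cf (1085 nuclei) had 224.9 CPM of Plekha6 and 183.7 of Atp8a2. One led by Rasgrf2 and Ltk (385 nuclei) had 152.0 and 165.5, and one led by Icam1 and Fabp1 (228 nuclei) had 70.8 and 41.5. The third was also the shallowest, at a median of 8588 UMIs against 12609 and 13945, and the part of depth was not tested. Of the unnamed clusters, the one led by Sfrp5 and Gckr (546 nuclei) had 67.4 CPM of Plekha6 and 82.4 of Atp8a2.

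At the listed starts of Plekha6, accessibility ran opposite to this RNA. The only peak within 1000 bp of a listed start, chr1:133180928-133181798 at the lowest start, had 6.12 counts per 1000000 peak counts (peak CPM) in visceral endoderm-like nuclei and 31.5 in epiblast-like nuclei (180 and 2365 counts). It was thus 5.15-fold more accessible in epiblast-like nuclei (4.17 to 6.42). It was also open in primitive streak-like (43.5 peak CPM), embryonic mesoderm-like (42.4) and anterior streak, node and definitive endoderm-like nuclei (36.4). Haemato-endothelial progenitor-like nuclei had 26.4, and most of these joined an extraembryonic mesoderm-like cluster at resolution 2. The remaining classes were low, with 8.01 in extraembryonic ectoderm-like, 6.001 in ectoplacental cone and giant cell-like and 5.68 in parietal endoderm-like nuclei (8.78 in the 32 and 4.66 in the 100, on 5 and 8 counts). The next peaks downstream had the same direction, since chr1:133182487-133183262 had 0.953 against 8.26 peak CPM and chr1:133187734-133188596 had 1.701 against 25.6. These were the 3 peaks of the Plekha6 window with the lowest ratio.

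Some Plekha6 peaks further along were more open in visceral endoderm-like nuclei, among others that were lower there, such as chr1:133298468-133299369 at 1.57 against 6.93 peak CPM. The peak with the highest ratio, chr1:133255043-133255965, centred at -3.5 kb from the highest listed start, had 33.1 against 0.933 peak CPM (973 and 70 counts), a 35.5-fold difference (25.5 to 50.8). The peak that holds the Plekha6 promoter sequence shown above, chr1:133245743-133246575, had 20.3 against 3.08 peak CPM, 6.60-fold higher (5.35 to 8.18), and 26.7 in parietal endoderm-like nuclei (14.04 in the 32, 30.9 in the 100). Just upstream of it, chr1:133244363-133245208 had 18.3 against 0.813, 22.6-fold higher (15.8 to 33.2). That peak lay 63.5 kb above the lowest listed start. The 5′ end of the RefSeq gene, 133162032, lay below the lowest listed start, in chr1:133161432-133162350. This peak had 6.06 against 1.37 peak CPM and was 4.41-fold higher (3.16 to 6.21). The peak that holds the whole Gm51648 promoter, chr1:133213738-133214598, had 7.49 against 0.280, 26.8-fold higher (15.3 to 50.5). Gm51648 is not among the measured genes. The other peaks named by rank were chr1:133234038-133234950, 9.41-fold higher (5.43 to 17.2), and chr1:133133965-133134781, 9.03-fold higher (6.57 to 12.6). Above the highest listed start, chr1:133265108-133266007 had 36.6 against 5.20 peak CPM and 28.4 in parietal endoderm-like nuclei (28.1 in the 32 and 28.5 in the 100). The most accessible peak of the window, chr1:133130793-133131684 at its lower edge, was open in both classes, at 67.2 and 54.9.

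Plekha6 peaks differed in which other classes opened them. The peak near the highest listed start had 38.03 peak CPM in parietal endoderm-like nuclei (33.4 in the 32 and 39.6 in the 100) and 23.5 in anterior streak, node and definitive endoderm-like nuclei, but 3.04 in embryonic mesoderm-like nuclei, although the RNA there was 43.5 against 22.8 CPM. The peak upstream of the RefSeq start had 12.8 in embryonic mesoderm-like and 14.1 in haemato-endothelial progenitor-like nuclei, the classes with 43.5 and 32.6 CPM of RNA (13.6 in the 237 nuclei, with 13.9 CPM of RNA), and 0.813 in epiblast-like nuclei. The Gm51648 peak was at 0.456 or below in all named classes outside the visceral and parietal endoderm. Plekha6 RNA in embryonic mesoderm-like nuclei went with an open lowest start and an open peak upstream of the RefSeq start, while in visceral endoderm-like nuclei the first was at 6.12 and the second at 18.3 peak CPM.

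Of the 44 Plekha6 peaks, all with at least 50 counts over both classes, 16 (36.4%) were at least 2-fold higher and 13 (29.5%) at least 2-fold lower in visceral endoderm-like than in epiblast-like nuclei. Over all peaks the shares were 17.3% and 39.8%. Of the 24 peaks between the listed starts, 9 were higher and 9 lower. The window was drawn from the listed starts, and its outermost peak above, chr1:133306821-133307326, had 3.78 against 3.88 peak CPM. The nearest peak outside, 477 bp past the edge, had 28.1 against 2.11.

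**Figure D2:**
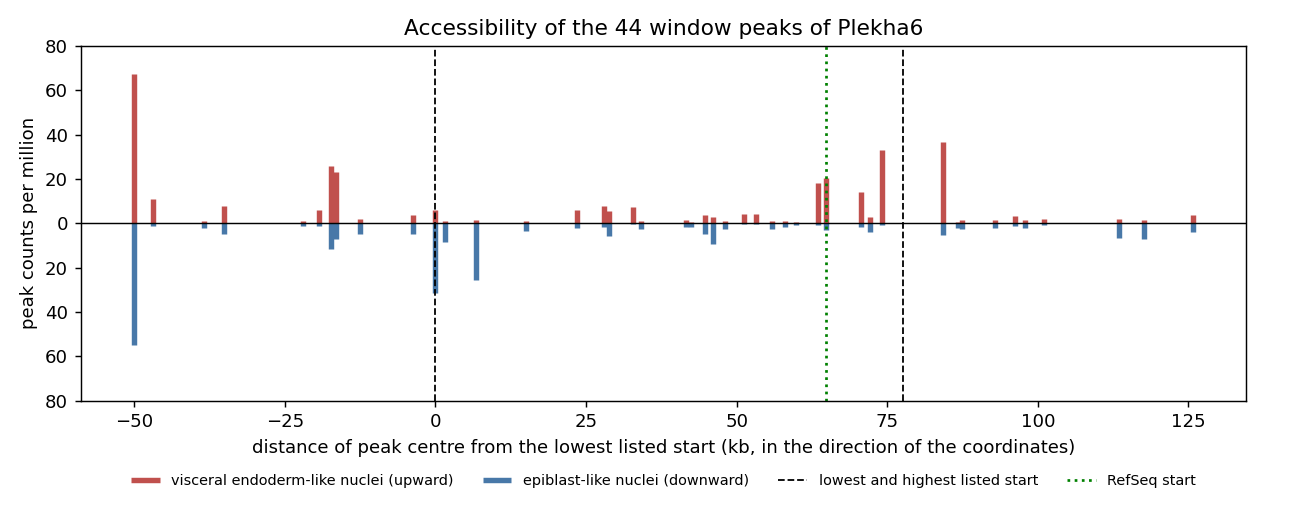
Accessibility (peak CPM) of the 44 peaks around Plekha6 by distance in kb from the lowest listed start, with visceral endoderm-like nuclei upward and epiblast-like nuclei downward. Dashed lines mark the lowest and highest listed starts and a dotted line the RefSeq start. The peak at the lowest start is longer downward, at 6.12 against 31.5. The peak centred at -3.5 kb from the highest start is longer upward, at 33.1 against 0.933. Its neighbour at -5.5 kb is longer downward, at 2.69 against 4.025.

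Atp8a2 also had a start peak that ran opposite to its RNA. The peak at its lowest listed start, chr14:60086505-60087406, had 5.95 peak CPM in visceral endoderm-like nuclei against 38.4 in epiblast-like nuclei (175 and 2878 counts), 6.44-fold more in epiblast-like nuclei (5.22 to 8.03). No peak lay within 1000 bp of the highest listed start. The low peak was open in every named class other than visceral and parietal endoderm-like nuclei, between 24.9 and 38.4 peak CPM. Parietal endoderm-like nuclei had 11.4, made up of 28.1 in the 32 nuclei and 5.82 in the 100 (16 and 10 counts). Embryonic mesoderm-like nuclei had 30.8 peak CPM there with 4.23 CPM of Atp8a2 RNA. The same peak overlaps 151 bp of the 4930563I02Rik promoter, whose RNA was at most 9 UMIs in a class (0.392 CPM in visceral endoderm-like nuclei, beside 1.18 on 2 UMIs in parietal endoderm-like nuclei), so that accessibility at this position cannot be told apart between both genes.

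The highest Atp8a2 ratio belonged to chr14:60178438-60179258, centred at -18.3 kb from the highest listed start, downstream of it on the inferred minus strand. Like chr14:60172270-60173045 and chr14:60181827-60182682, also among the highest ratios, it lies outside RefSeq Atp8a2 and inside the long non-coding RNA gene Gm33582 (chr14:60171647-60182982, plus strand), so that the files do not tie it to Atp8a2 alone. It had 35.7 peak CPM in visceral endoderm-like and 0.720 in epiblast-like nuclei (1050 and 54 counts), a 49.6-fold difference (34.4 to 74.3), and 29.7 in parietal endoderm-like nuclei. All 68 counts of the last were in the 100 nuclei, at 39.6 peak CPM, and the 32 had 0, which allows up to 5.27. In the named classes other than these it was at most 4.86, in the anterior streak, node and definitive endoderm-like class. On the other side, at -27.8 kb from the lowest start and inside the RefSeq gene, chr14:60058571-60059468 had 14.8 against 0.813, 18.3-fold higher (12.6 to 27.2). That peak was higher still in parietal endoderm-like nuclei, at 32.3 peak CPM (28.1 in the 32 and 33.8 in the 100), and at most 3.89 elsewhere. The following ratios were 14.2-fold at chr14:60172270-60173045 (8.07 to 26.7), 13.8-fold at chr14:60181827-60182682 (8.95 to 22.2) and 7.66-fold at chr14:60209475-60210281 (4.26 to 14.4). These 3 rested on 128, 249 and 78 counts in visceral endoderm-like nuclei.

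Next to the leading Atp8a2 peak, chr14:60176910-60177840 was the most accessible of the window in visceral endoderm-like nuclei, at 39.3 peak CPM, but it was open throughout, with 20.5 in epiblast-like and 33.1 in ectoplacental cone and giant cell-like nuclei. It shares 91 bp with the Gm33582 promoter shown above, and Gm33582 is not among the measured genes. At the other end of the order were the lowest start peak, chr14:60244872-60245732 with 0.204 against 0.653 peak CPM on 6 and 49 counts, and chr14:60121296-60122177 with 1.19 against 3.40. The second of these had an inverse ratio of 3.20-fold with an interval that included 1 (0.976 to 16.6).

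Of the 23 Atp8a2 peaks, 21 had at least 50 counts. At least 2-fold higher in visceral endoderm-like nuclei were 7 (33.3%) and at least 2-fold lower 4 (19.0%), beside 17.3% and 39.8% of all peaks. With estimated fragments in place of counts, 2 peaks were at least 2-fold lower. The nearest peaks outside the window, 20260 and 621 bp past its edges, had folds of 1.73 and 1.31. The outermost peaks inside had 0.451 and 0.313, both with intervals that included 1.

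**Figure D3:**
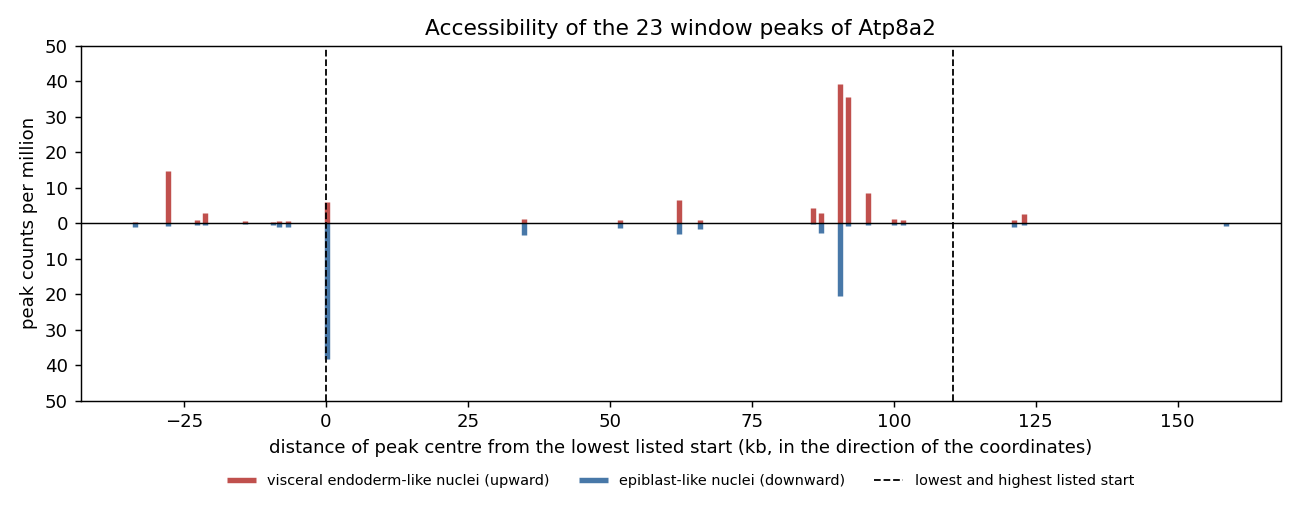
Accessibility (peak CPM) of the 23 peaks around Atp8a2 by distance in kb from the lowest listed start, with visceral endoderm-like nuclei upward and epiblast-like nuclei downward and dashed lines at the listed starts. The peak at the lowest start is long only downward, at 38.4, and the leading peak 92.0 kb above it is long only upward, at 35.7.

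Keeping the nuclei called as doublets changed these start values most. The ratio of visceral endoderm-like over epiblast-like nuclei at the listed start went from 0.194 to 0.447 for Plekha6 and from 0.155 to 0.385 for Atp8a2, both still below 1. The number of Plekha6 peaks at least 2-fold lower went from 13 to 8.

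At the listed starts of Rimbp2 the difference in accessibility was small and again opposite to the RNA. The peak at the highest listed start, chr5:128953172-128954040, which holds the Rimbp2 promoter sequence shown above, had 13.8 peak CPM in embryonic mesoderm-like and 21.9 in epiblast-like nuclei (395 and 1643 counts), 1.59-fold more in epiblast-like nuclei (1.36 to 1.86). A second peak near that start, chr5:128951746-128952565, had 3.53 against 3.598, a ratio whose interval included 1. The peak at the lowest listed start, chr5:128819452-128820368, had 1.36 against 2.95 on 39 and 221 counts. Summed, the 3 start peaks had 18.7 against 28.4 peak CPM, 1.52-fold more in epiblast-like nuclei (1.34 to 1.74). The promoter peak was low in visceral endoderm-like nuclei, at 1.497 peak CPM, where Rimbp2 RNA was near 0. Parietal endoderm-like nuclei, with 0 Rimbp2 UMIs, had 1.75 on 4 counts, all in the 32, which were at 7.02. Another class with RNA near 0, ectoplacental cone and giant cell-like nuclei, was not compared here. The peak was between 12.7 and 13.8 in the classes of streak, mesoderm and haemato-endothelial progenitors, whose RNA ran from 4.21 to 107.2 CPM.

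The Rimbp2 peaks with the highest ratios lay between the listed starts. The first, chr5:128875834-128876613, had 23.1 against 0.680 peak CPM (662 and 51 counts), a 34.0-fold difference (23.1 to 51.9). Its neighbour chr5:128877282-128878102 was the most accessible of the window in embryonic mesoderm-like nuclei, with 53.97 against 5.997, 8.999-fold higher (7.80 to 10.4). Both were next highest in primitive streak-like nuclei, at 6.32 and 24.2, and both were at most 0.374 in visceral endoderm-like nuclei. The others of the 5 highest ratios were 12.4-fold at chr5:128907648-128908403 (7.88 to 20.1), 5.86-fold at chr5:128858328-128859148 (4.25 to 8.16) and 4.42-fold at chr5:128904824-128905490 (2.44 to 8.22). The last was highest in extraembryonic ectoderm-like nuclei, at 11.6 peak CPM against 2.06 in embryonic mesoderm-like nuclei, where Rimbp2 RNA was 2.61 and 107.2 CPM.

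All 43 Rimbp2 peaks had at least 50 counts, and 10 (23.3%) were at least 2-fold higher in embryonic mesoderm-like than in epiblast-like nuclei, against 14.6% of all peaks. All 10 were among the 27 between the listed starts. At least 2-fold lower was 1 peak (2.33%), the one at the lowest start, against 14.9% of all peaks, and 5 of the alternative settings gave 2. The next lowest ratios were 0.518 at chr5:128871417-128872280 and 0.593 at chr5:128813037-128813838. The peaks just outside the Rimbp2 window had ratios of 0.518 and 0.431, and those just inside 1.02 and 1.53.

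**Figure D4:**
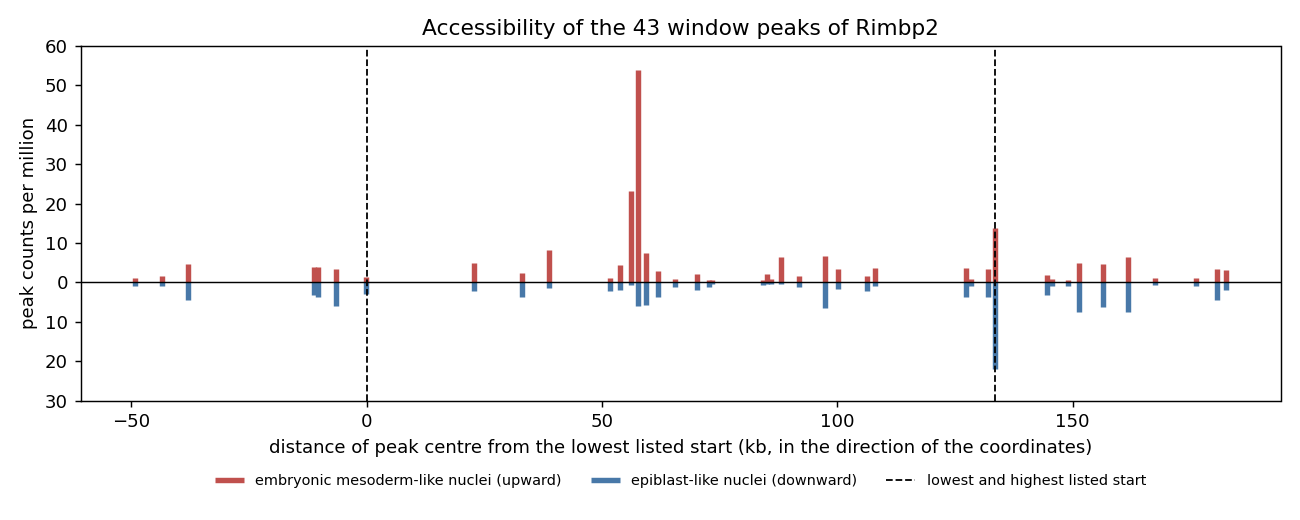
Accessibility (peak CPM) of the 43 peaks around Rimbp2 by distance in kb from the lowest listed start, with embryonic mesoderm-like nuclei upward and epiblast-like nuclei downward and dashed lines at the listed starts. A neighbouring pair near 57 kb stands out upward, at 23.1 and 53.97, and the highest start is long in both directions, at 13.8 and 21.9.

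The pattern was then set against all genes under the same class pairs, as the background of a choice made on these values. Of 2237 genes at least 2-fold higher in visceral endoderm-like RNA and with a peak at a listed start, 19.8% had lower start accessibility there and 4.56% at least 2-fold lower. Plekha6 ranked 18 and Atp8a2 ranked 14 from the lowest start ratio among them. For embryonic mesoderm the shares were 34.7% and 0.806% of 992 genes, and Rimbp2 ranked 35. A window peak at least 2-fold higher was found for 91.2% of the visceral endoderm genes with lower starts and for 80.2% of all genes. For embryonic mesoderm these shares were 86.6% and 65.7%. Peaks past 10-fold, a limit set after the values were seen, made up 6.28% of all peaks for visceral endoderm and 1.64% for embryonic mesoderm. At least 1 lay in the window of 70.7% of the visceral endoderm genes with lower starts and 51.0% of all genes, and of 33.4% and 11.4% for embryonic mesoderm.

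Over the 19 RNA clusters, which share 1 library, the log2 levels of RNA and of single peaks were compared as a description. The leading peaks were picked for their ratio between the class pair whose RNA ratio chose the gene, and lower start peaks were part of the choice of all 3 genes, so positive signs at the former and negative signs at the latter were largely set by the choice. The promoter peak of Rimbp2 had the other sign. For Plekha6 the Pearson coefficient was -0.42 for the start peak and -0.70 for chr1:133187734-133188596. It was 0.85 for the peak with the RefSeq start, 0.84 for the one near the highest start and 0.87, the highest in the window, for chr1:133251573-133252365. For Atp8a2 it was -0.67 at the start peak, 0.79 at the leading peak and 0.89 at chr14:60058571-60059468. For Rimbp2 it was 0.64 at the promoter peak, 0.86 at the leading peak and 0.89 at its neighbour. Coefficients above 0.5 were found for 14 Plekha6, 9 Atp8a2 and 20 Rimbp2 peaks (31.8%, 39.1% and 46.5%), against 12.7%, 11.8% and 19.4% of all 229480 peaks set against the same genes. Below -0.5 were 3, 2 and 0, against 17.4%, 12.7% and 5.43% of all peaks. These counts include peaks that the choice touched and are a description. The unnamed cluster of 112 nuclei with a median of 25025 UMIs went against the start peaks. It had 140.7 CPM of Plekha6 RNA at 23.4 peak CPM and 148.1 of Atp8a2 RNA at 21.3. Its mean log2 ratio for the visceral endoderm markers was 0.38, and the median over all kept nuclei was 10471 UMIs. Whether this cluster held doublets was not tested. Another of the 19 clusters had a median of 1756 UMIs.

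**Figure D5:**
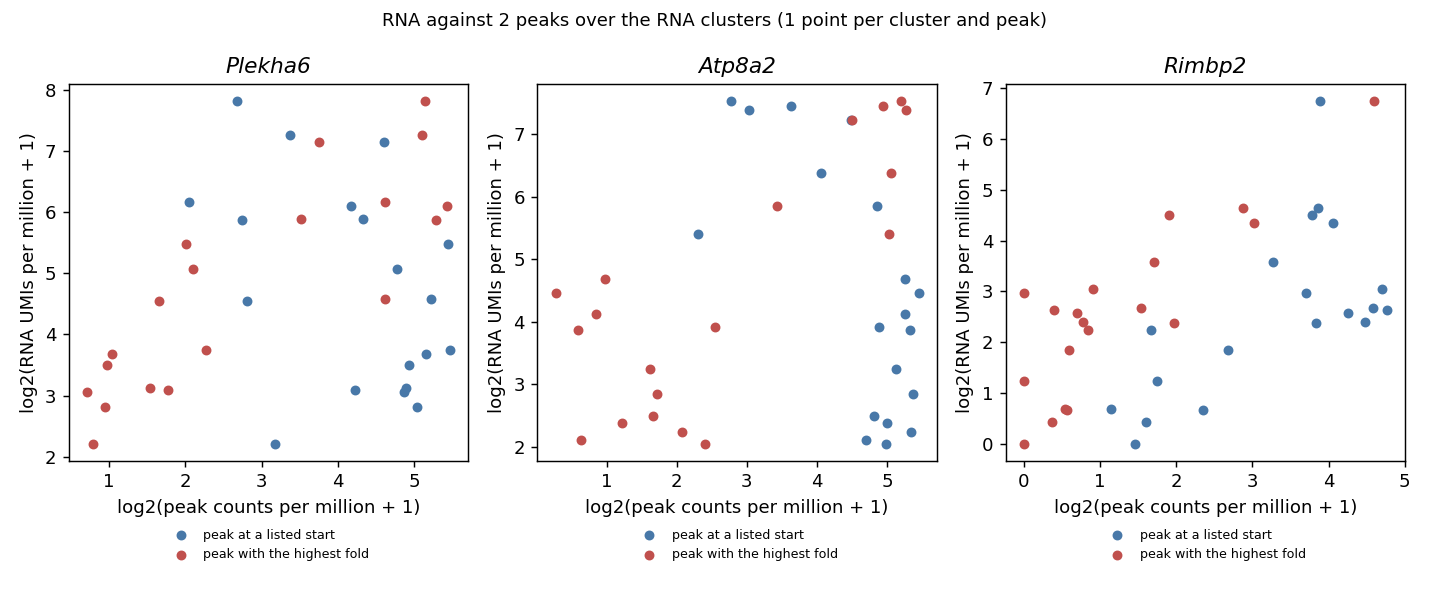
RNA (log2 of CPM plus 1) against accessibility (log2 of peak CPM plus 1) over 19 RNA clusters, with 1 point per cluster for the peak at a listed start (blue; for Rimbp2 the one at the highest start) and 1 for the peak with the highest ratio (red). Red points go up with RNA in all 3 panels, with coefficients of 0.84, 0.79 and 0.86, and blue points go down for Plekha6 (-0.42) and Atp8a2 (-0.67) but up for Rimbp2 (0.64); apart from the blue points of Rimbp2, these signs were largely set by how peaks and genes were chosen.

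Within the high class, nuclei were also split by whether they had a count in the leading peak. For Plekha6, 25.3% of visceral endoderm-like nuclei had a count in chr1:133255043-133255965, against 1.02% of epiblast-like nuclei, and both parts had 191.9 CPM of RNA. For Atp8a2 the leading peak was found in 26.6% against 0.776% of nuclei, with 171.7 CPM of RNA in visceral endoderm-like nuclei with it and 162.9 without. For Rimbp2, embryonic mesoderm-like nuclei with a count in chr5:128875834-128876613 (19.3%) had 124.4 CPM and those without 102.3, and for its neighbour (40.5%) the levels were 115.3 and 100.9. Over the window peaks at least 2-fold higher in the class, RNA was higher in the nuclei with a count at 13 of 16 Plekha6, 4 of 7 Atp8a2 and 8 of 10 Rimbp2 peaks, against 59.9%, 61.0% and 53.4% of all peaks at least 2-fold higher there. It was lower at 3, 3 and 2, against 40.1%, 39.0% and 46.6%. The 3 Plekha6 peaks include the leading peak, whose levels were equal as printed. Lower levels were found at chr14:60209475-60210281 of Atp8a2 (143.9 with a count, 166.0 without) and chr5:128927633-128928685 of Rimbp2 (90.2 and 107.8), which were chosen after their values were seen. Nuclei with a count were also deeper in peak counts, for Rimbp2 at a median of 24167 against 18275 at the leading peak; the part of depth in these splits was not tested.

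Genes related to each member by function were counted list by list. Of 15 other genes of the PLEKHA family and junction partners, 4 were at least 2-fold higher and 3 lower in visceral endoderm-like nuclei, with a median log2 ratio of 0.031 against -0.13 over all genes. Among all genes 15.5% were higher and 23.1% lower, 38.6% in either direction. Plekha2 was 7.23-fold higher and Cgn, which encodes the junction protein cingulin, 2.84-fold higher, whereas Plekha5 was 4.36-fold and Tspan15, a tetraspanin, 3.03-fold higher in epiblast-like nuclei.

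Of 14 other flippases and CDC50 subunits with enough UMIs, 3 were higher and 5 lower in visceral endoderm-like nuclei, with a median log2 ratio of -0.22, beside 15.5% higher, 23.1% lower and a median of -0.13 over all genes. The largest differences were in genes higher in epiblast-like nuclei, namely Atp10a (79.3 against 1.44 CPM, 55.2-fold), Atp8b1 (7.47-fold), Atp8b3 (6.47-fold) and Atp8b5 (4.61-fold). Atp8b1 and Atp8b3 rested on 6 UMIs each in visceral endoderm-like nuclei. Like Atp8a2, its closest relative Atp8a1 was higher in visceral endoderm-like nuclei, at 213.4 against 65.99 CPM. Tmem30a, the CDC50 subunit that most P4-ATPases need to leave the endoplasmic reticulum, was 1.64-fold higher, under the 2-fold limit. Both were chosen for their known relation to Atp8a2.

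Of 21 other active zone scaffold and calcium channel genes with enough UMIs, 1 was higher and 11 lower in embryonic mesoderm-like nuclei, with a median log2 ratio of -1.0 against 0.0084 over all genes, of which 6.94% were higher and 11.5% lower (18.4% in either direction). The gene that was higher was Cacnb4, a calcium channel beta subunit (239.5 against 40.4 CPM, 5.92-fold). The 4 Rims genes of the list were higher in epiblast-like nuclei, Rims4 10.1-fold, Rims1 6.96-fold, Rims2 4.74-fold and Rims3 3.32-fold. Of these, Rims1 and Rims2 encode the long RIM scaffolds that RIM-binding proteins bind. For Tspoap1, which encodes RIM-binding protein 1, epiblast-like nuclei were 6.15-fold higher, on 12 UMIs in embryonic mesoderm-like nuclei.

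Over 18 accessibility clusters of at least 100 nuclei, the genes whose RNA was most like each member were found among 14373 genes by the Pearson coefficient of log2 levels. For Plekha6 they were Nfia, a transcription factor gene (0.95; 200.1 against 4.64 CPM in visceral endoderm-like and epiblast-like nuclei), Gm19461 (0.95), Mospd1, Tmem263 and Nipsnap2 (0.94 each). Gm19461 is a long non-coding RNA on the opposite strand that starts inside the Plekha6 window at 133269808 and overlaps the gene, and its 7.27 against 0.262 CPM cannot be told apart from Plekha6 reads without stated strand use. For Atp8a2 they were Ppm1h and Slc16a10 (0.97 each), Dmd, Zbtb16 and Tec (0.96 each), and for Rimbp2 they were Irx5 (0.94), Tenm2 and Chst7 (0.93 each), Gm15414 and Dll3 (0.92 each). The coefficient between Plekha6 and Atp8a2 themselves was 0.72, and Rimbp2 had -0.024 with Plekha6 and -0.40 with Atp8a2.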

How the data were processed

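Single nuclei of pooled E7.0 mouse embryos were measured for RNA and accessible chromatin. The deposited values were raw counts, UMIs per gene and counts per peak in 1 sparse matrix, made by the authors with Cell Ranger ARC 2.0.0 on mm10, per the submitters' processing notes. How peaks were called and whether counting used strand is not given in the sources used here. Of nonzero peak values 86.4% were even, so accessibility intervals were computed on estimated fragments (count divided by 2, rounded up) and rescaled to match the ratio in counts.

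Barcodes with no more than 20% mitochondrial UMIs and at least 1000 UMIs, 500 genes and 1000 peak counts were kept (13896 of 15341), and Scrublet calls in scanpy 1.11.5 (expected rate 0.1) were removed, leaving 12796 nuclei. RNA (2000 variable genes without the 3 members, 30 components) and accessibility (TF-IDF and singular vectors without the 110 window peaks) were clustered apart with leidenalg 0.10.2 at resolution 1, 15 neighbours and seed 0. No barcode was duplicated.

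RNA clusters were named from 15 marker lists by a scoring rule set after the data had been seen, requiring a mean log2 ratio of 0.5 and 3 markers raised 1.5-fold. Named in both assays were 10602 nuclei, of which 85.3% had the same name. Because both namings used the same RNA, this share does not compare independent names. Levels are CPM, the counts of a class scaled to a total of 1000000. Folds have exact conditional binomial intervals and levels exact Poisson intervals (scipy 1.17.1), and no test was run, with 1 library per assay. A gene or peak counted as higher or lower at 2-fold on at least 50 counts over both classes. The genes, lists and motifs were chosen with earlier results of these data known. Named were the 3 genes, the 5 genes most like each, the 4 largest differences of each list, the peaks within 1000 bp of a listed start, and the 5 highest and 3 lowest peaks of each window. Other genes and peaks named were chosen after their values were seen. Alternatives were other resolutions, accessibility-defined classes, doublets kept, stricter depth, members left in, agreement of both assays, fragments, a promoter denominator, a wider start window, no count minimum and thinning to 5000 UMIs. Exon and intron annotation was not used here.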

Additional observations from a re-analysis of the deposited data

How the results depend on the processing

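Of the values recomputed under an alternative setting, 96 moved by less than their counting interval or stayed within 1.5 times for counts, 18 moved further, and none changed direction. With doublet calls kept, the RNA fold of Plekha6 went from 19.8 to 15.8 and that of Atp8a2 from 8.74 to 6.68, the ratio at the listed starts from 0.194 to 0.447 for Plekha6 and from 0.155 to 0.385 for Atp8a2, and the Plekha6 peaks at least 2-fold lower from 13 to 8. With at least 2000 UMIs and 2000 peak counts, the RNA folds were 22.3 for Plekha6 and 7.88 for Atp8a2, and the Plekha6 start ratio was 0.249. At resolution 0.5 the Rimbp2 RNA fold was 14.8 rather than 19.2. With estimated fragments in place of counts, 2 rather than 4 Atp8a2 peaks were lower. The Rimbp2 peaks at least 2-fold lower went from 1 to 2 under accessibility-defined classes, doublet calls kept, the stricter depth, the members left in the variable genes and agreement of both assays. Thinning to 5000 UMIs, which also leaves out shallower nuclei, changed the share of nuclei with a UMI to 59.0% for Plekha6, 49.9% for Atp8a2 and 37.1% for Rimbp2. For these moves the cause was not tested. RNA and accessibility were paired within nuclei, but no analysis paired by embryo or library was possible, because each assay had 1 library. Depth limits the peaks with under 50 counts, of which Atp8a2 had 2 of its 23, and the parietal endoderm-like nuclei, which numbered 132, 32 at resolution 0.5 or 2, 30 at the stricter depth and 159 with doublet calls kept, with 173.9, 43.3, 39.6 and 175.9 CPM of Atp8a2. Haemato-endothelial progenitor-like nuclei had 13.2 CPM of Plekha6 at resolution 0.5 and 13.9 at 2, against 32.6, and 16.5 of Rimbp2 with doublet calls kept, against 4.21.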
